A study of Mus musculus with 7 samples.

Results

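Collagens are the main structural proteins of the extracellular matrix. Each collagen molecule is wound from chains that are encoded by separate genes, and the expression of those genes was examined here in C2C12 cells, an established line of mouse skeletal myoblasts. Members were all genes whose symbol on the array platform has the form Col, a type number, the letter a and a chain number, each read from the probe set with the highest mean signal among those with 1 symbol. This gave 44 of 22180 measured genes, from 47 probe sets. They were divided by general knowledge into 11 fibrillar chains, 8 basement membrane chains (types IV, XV and XVIII) and 25 others.

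The cells were transfected with an siRNA against G9a (siG9a, 3 arrays), with an siRNA against GLP (siGLP, 2 arrays) or with a control siRNA (Control, 2 arrays), at 0.2 µmol per dish in medium with 15% serum. Both targets, G9a (encoded by Ehmt2) and GLP (encoded by Ehmt1), methylate histone H3 at lysine 9, and the study asked whether their roles in myoblasts are distinct. Nothing in the labels says that replicate arrays stand for separate cultures. The p-values therefore reflect the spread among the 7 arrays, which may be technical, and their small number limits the precision. The groups are a knockdown in a single cell line, the siRNA sequences are unknown here, and off-target effects were not tested.

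In muscle, fibrillar collagens (types I, III and V) form the fibres between muscle cells, type IV forms the network of the basement membrane around each fibre, and type VI forms beaded filaments that link the network to the fibres. Chains are hydroxylated and folded in the endoplasmic reticulum, exported as procollagen, trimmed outside the cell and cross-linked. Myoblasts as well as fibroblasts make collagen chains.

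The targeted transcripts were read first. Ehmt2 had log2 signals of 6.31, 6.14 and 5.99 in siG9a and 7.56 and 7.46 in Control. It fell to 38.8% of the control level (limma log2 difference -1.37, SE 0.10; adjusted p = 0.0308 by Benjamini-Hochberg). That call was lost when any 1 siG9a array was left out. Without any 1 array the difference stayed between -1.45 and -1.29. Ehmt1 had log2 signals of 5.74 and 6.13 in siGLP and 6.71 and 6.73 in Control, a difference of -0.79 that did not pass (limma adjusted p = 0.197). All 10 measured myoblast markers, Myod1 and Des among them, lay above the median of all probe sets on each of the 7 arrays, against 3 of 8 fibroblast, 1 of 7 bone and cartilage, 1 of 4 leukocyte, 1 of 4 epithelial and 0 of 5 endothelial markers. The median signal of all probe sets was between 4.54 and 4.59 on the 7 arrays.

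No collagen gene passed the test over all genes in any comparison (limma, Benjamini-Hochberg adjusted p under 0.05). The smallest adjusted p among the 44 was 0.187 for Col8a1 in siG9a against Control, 0.225 for Col3a1 in siGLP against Control and 0.167 for Col4a1 in siGLP against siG9a. The share of all genes that passed was 0.0271% in siG9a, 0.00451% in siGLP and 0.234% between the knockdowns. At an unadjusted p under 0.05 there were 5 collagen genes in siG9a, 4 higher and 1 lower, where 10.5% of all genes reached it, 5.95% higher and 4.57% lower. In siGLP there were 3, 1 higher and 2 lower, where 8.63% of all genes reached it, 4.51% higher and 4.13% lower. In siGLP minus siG9a there were 6, 1 higher and 5 lower, where 12.4% of all genes reached it, 5.87% higher and 6.57% lower. These counts were near the background share of each comparison, and so they are no result about collagens as a family. The count in siG9a was 6 without siG9a 1 (10.1% of all genes), 6 without siG9a 2 (10.7%) and 4 without siG9a 3 (8.26%). Over the same fits, that in siGLP ran from 3 without siG9a 3 (7.93%) to 5 without siG9a 1 (8.76%). That in siGLP minus siG9a ran from 5 without siG9a 3 (10.2%) to 8 without siG9a 1 (11.6%). No count is given without a Control or siGLP array, since 1 array would remain in that group. By sign alone, 25 of the 44 lay above Control in siG9a (51.9% of all genes did) and 24 in siGLP (50.6%), and 21 lay higher in siGLP than in siG9a (48.6%) with 23 lower (51.4%). Log2 differences from Control ran from -0.51 to 0.43 in siG9a and from -0.47 to 0.42 in siGLP, and the values of single genes that follow are descriptions of these arrays.

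**Figure D1:**
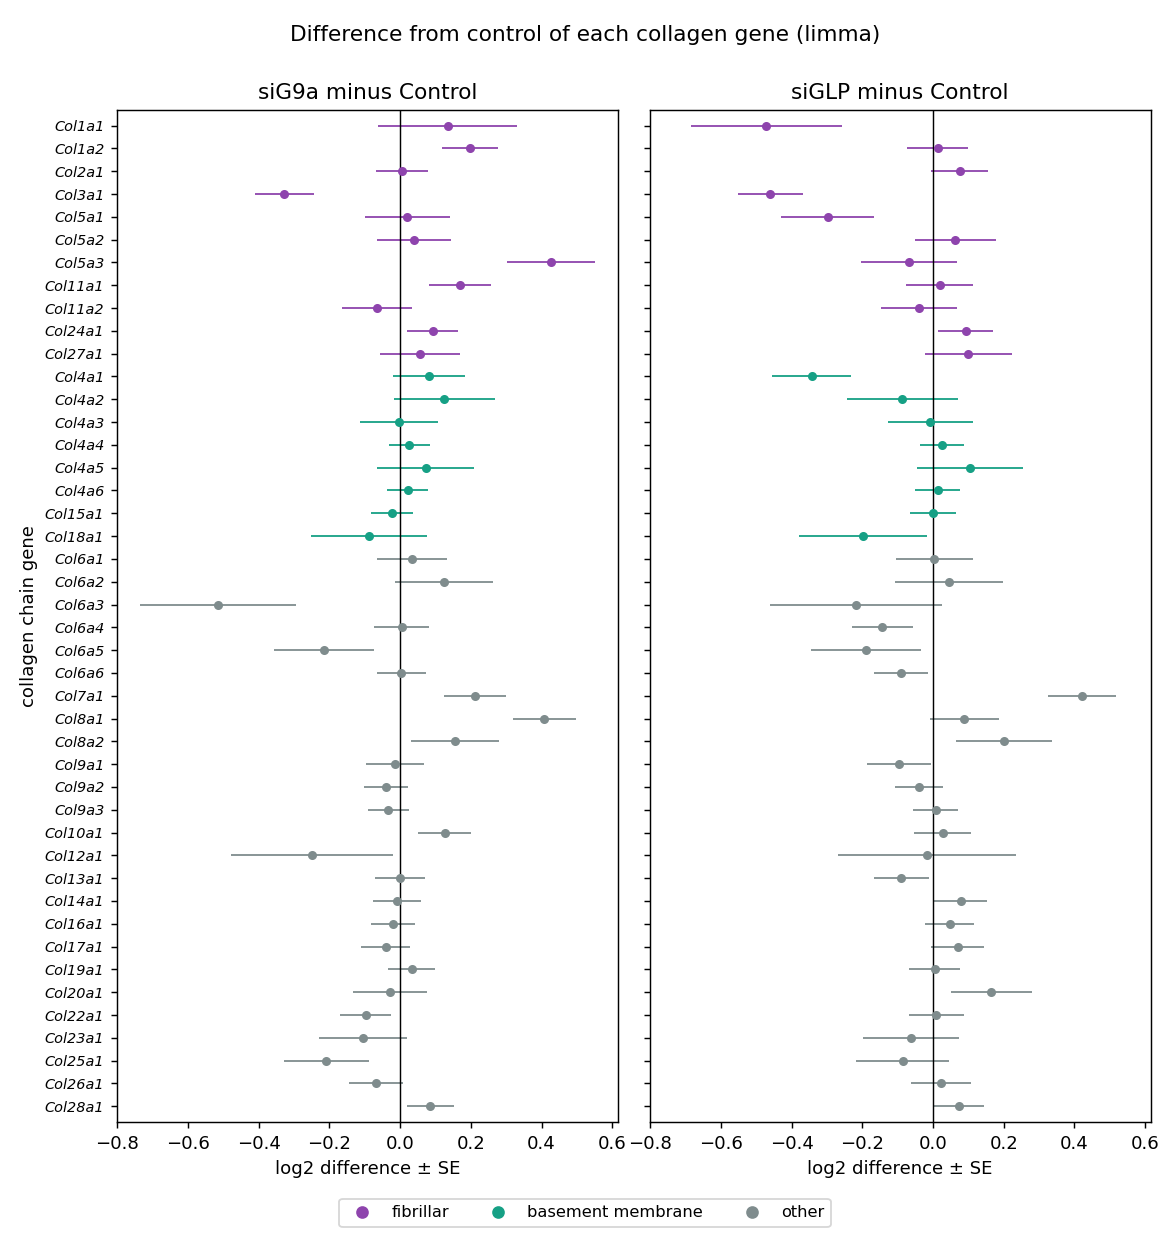
Fitted log2 difference from Control (horizontal axis, points, with its SE as bars) of each of the 44 collagen genes, coloured by class, in siG9a (left) and siGLP (right). Col8a1 (0.41) and Col5a3 (0.43) lie farthest right in siG9a and Col6a3 (-0.51) farthest left, while in siGLP Col7a1 (0.42) lies farthest right and Col1a1 (-0.47) and Col3a1 (-0.46) farthest left.

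Of the 11 collagen genes whose signal lay above the upper quartile of all probe sets (6.85 to 6.90) on every array, 4 were fibrillar (Col1a2, Col3a1, Col5a1 and Col5a2), 3 were of the basement membrane (Col4a1, Col4a2 and Col18a1) and 4 were others (Col6a1, Col6a3, Col8a1 and Col12a1). Another 15 lay above the median on every array without reaching that mark on all of them, which makes 26. Col28a1 lay below the lower quartile (3.33 to 3.36) throughout, at 3.09 to 3.27, and no detection calls were used here, so its values may be background. In 15 of the 44 genes (34.1%, against 21.4% of all genes) the deposited value was identical in every digit on at least 3 arrays, Col15a1 at 4.26 on 6 of 7 among them, and such repeated values can understate the spread. None of the genes with unadjusted p under 0.05 in any comparison was among these 15.

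Col3a1 was the fibrillar gene with the smallest p in siGLP. It encodes the chain of type III collagen, which forms fibres together with type I. Its log2 signal was 9.41, 9.44 and 9.31 in siG9a, 9.19 and 9.33 in siGLP, and 9.79 and 9.64 in Control. Both control arrays lay above all 5 knockdown arrays. The log2 difference from Control was -0.33 in siG9a (SE 0.084; 79.7% of the control level; limma adjusted p = 0.244) and -0.46 in siGLP (SE 0.092; 72.7% of the control level; adjusted p = 0.225). The comparisons share the control arrays, so they are not independent, and siGLP and siG9a overlapped. Non-overlap alone was common on so few arrays. In siG9a against Control it held for 5 of the 44 collagen genes (25.7% of all genes), 4 of them above (14.0%) and 1 below (11.7%). In siGLP against Control it held for 11 (34.2%), 5 above (17.4%) and 6 below (16.9%), and in siGLP against siG9a for 12 (26.3%), 4 above (12.1%) and 8 below (14.2%). Col5a2, which encodes a chain of type V collagen and is the neighbouring protein-coding gene on chromosome 1, had overlapping groups at 8.94, 8.64 and 8.66 in siG9a, 8.84 and 8.70 in siGLP, and 8.70 and 8.71 in Control.

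**Figure D2:**
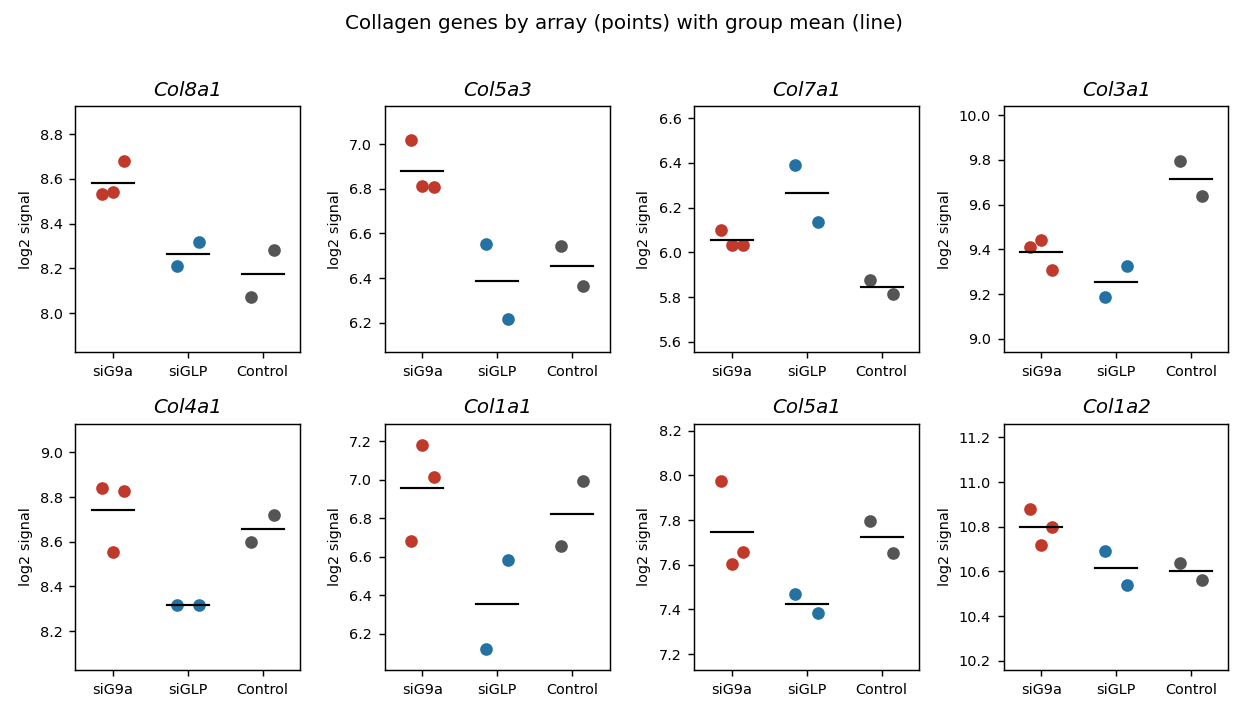
Log2 signal (vertical axes, each panel on its own range) of 8 collagen genes on each array (points), with group means as lines, for siG9a (3 arrays), siGLP (2) and Control (2). Col3a1 is lower and Col7a1 higher on all 5 knockdown arrays than on both control arrays, Col8a1 and Col5a3 are highest in siG9a, and Col4a1, Col1a1 and Col5a1 are lowest in siGLP.

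Among type V chains, which regulate the width of type I fibrils, Col5a3 stood apart in siG9a. Its log2 signal was 7.02, 6.81 and 6.81 in siG9a, 6.56 and 6.22 in siGLP, and 6.54 and 6.37 in Control. All siG9a arrays lay above the other 4 arrays, and siGLP overlapped Control. The difference was 0.43 in siG9a minus Control (SE 0.12; 1.34-fold; limma adjusted p = 0.304) and -0.49 in siGLP minus siG9a (SE 0.12; adjusted p = 0.181), the second being -0.33 without siGLP 2. Col5a1, the chain found in most type V molecules, had log2 signals of 7.98, 7.60 and 7.66 in siG9a, 7.47 and 7.38 in siGLP, and 7.80 and 7.65 in Control. Here the siGLP arrays were the lowest and siG9a overlapped Control. Its difference was -0.30 in siGLP minus Control (SE 0.13; limma adjusted p = 0.606) and -0.32 in siGLP minus siG9a (SE 0.12; adjusted p = 0.356), the second being -0.20 without siG9a 1. A second probe set of Col5a1 read 6.05 and 6.29 in siGLP and 6.42 and 6.15 in Control, and there the groups overlapped.

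Type I collagen, the main fibre-forming collagen, is built from chains of Col1a1 and Col1a2. Col1a1, which encodes the alpha 1 chain, had log2 signals of 6.68, 7.18 and 7.01 in siG9a, 6.12 and 6.58 in siGLP, and 6.66 and 6.99 in Control. Both siGLP arrays lay below all others, siGLP 1 by the most. The difference was -0.47 in siGLP minus Control (SE 0.21; limma adjusted p = 0.618), with -0.24 when siGLP 1 and -0.30 when Control 2 was left out, and -0.61 in siGLP minus siG9a (SE 0.20; adjusted p = 0.282), with -0.38 without siGLP 1. Col1a2, which encodes its partner, the alpha 2 chain, had log2 signals of 10.88, 10.72 and 10.80 in siG9a, 10.69 and 10.54 in siGLP, and 10.64 and 10.56 in Control. Its siG9a arrays lay above the rest, by 0.20 over Control (SE 0.079; limma adjusted p = 0.451), and siGLP overlapped Control. The difference in siGLP minus siG9a was -0.18 (SE 0.079; adjusted p = 0.410 by limma), or -0.11 without siGLP 2. A second probe set of Col1a2 read 9.08, 8.72 and 8.59 in siG9a and 8.60 and 8.45 in Control, so its groups overlapped.

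The remaining fibrillar genes had no unadjusted p under 0.05. Col11a1, a chain of the cartilage collagen type XI, read 3.93, 3.95 and 3.71 in siG9a, 3.71 and 3.71 in siGLP, and 3.67 and 3.71 in Control, a difference of 0.17 in siG9a (SE 0.088; limma adjusted p = 0.563) with overlapping arrays. Its signals lay below the median of all probe sets on every array and may be near background. Col11a2, Col24a1 and Col27a1 overlapped in every comparison, with signals between 4.21 and 5.41 on the 7 arrays. Col2a1, the main cartilage collagen, lay between 4.80 and 4.98, with the siGLP arrays highest. Over the 11 fibrillar genes the median log2 difference was 0.056 in siG9a minus Control, 0.013 in siGLP minus Control and -0.13 in siGLP minus siG9a, against 0.0052, 0.0015 and -0.0037 over all genes. In siGLP minus siG9a, 7 of the 11 were lower and 4 were higher.

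Type IV collagen gave the only basement membrane gene with an unadjusted p under 0.05. Col4a1 and Col4a2 encode the alpha 1 and alpha 2 chains, which wind together in the main type IV molecule, and the genes lie head to head on chromosome 8. Their promoter windows from RefSeq (GRCm38.p6, 250 bases before to 50 bases after each start) are shown because the annotated starts are 21 bases apart and the windows share 78 bases, given in capitals, read on opposite strands. Col4a1 is at chr8:11312777-11313076 on the minus strand and Col4a2 at chr8:11312555-11312854 on the plus strand.
Col4a1: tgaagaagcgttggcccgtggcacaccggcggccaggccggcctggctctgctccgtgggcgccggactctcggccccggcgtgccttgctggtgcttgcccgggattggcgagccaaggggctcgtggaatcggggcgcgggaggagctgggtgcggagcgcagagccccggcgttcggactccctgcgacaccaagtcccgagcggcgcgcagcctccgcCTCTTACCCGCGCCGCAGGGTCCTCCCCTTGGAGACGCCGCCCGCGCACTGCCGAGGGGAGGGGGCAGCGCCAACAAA
Col4a2: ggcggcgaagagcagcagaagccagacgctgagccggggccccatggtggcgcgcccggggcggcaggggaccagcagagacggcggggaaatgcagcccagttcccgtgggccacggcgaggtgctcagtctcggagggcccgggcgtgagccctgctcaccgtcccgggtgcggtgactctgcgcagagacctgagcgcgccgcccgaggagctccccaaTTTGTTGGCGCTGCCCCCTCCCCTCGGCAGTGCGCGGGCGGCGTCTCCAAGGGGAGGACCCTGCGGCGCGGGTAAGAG
Col4a1 had log2 signals of 8.84, 8.55 and 8.83 in siG9a, 8.31 and 8.32 in siGLP, and 8.60 and 8.72 in Control. Both siGLP arrays lay below the other 5. The difference was -0.34 in siGLP minus Control (SE 0.11; 78.8% of the control level; limma adjusted p = 0.441) and -0.42 in siGLP minus siG9a (SE 0.10; adjusted p = 0.167). Col4a2 had log2 signals of 7.84, 7.37 and 7.78 in siG9a, 7.53 and 7.37 in siGLP, and 7.55 and 7.53 in Control, and its groups overlapped in each comparison. Within siG9a both genes had their lowest value on siG9a 2. The difference between the chains in their response was not tested.

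The other type IV chains replace the alpha 1 and alpha 2 chains in specialised basement membranes such as that of the kidney. Col4a3, Col4a4 and Col4a6 lay between 3.88 and 4.32 on the 7 arrays, and Col4a5 between 5.18 and 5.62, each with overlapping groups. Col18a1, whose protein carries the endostatin fragment, read 7.29, 6.99 and 7.06 in siG9a, 7.12 and 6.89 in siGLP, and 7.45 and 6.95 in Control, where the control arrays spanned most of the range. Over the 8 basement membrane genes the median log2 difference was 0.024 in siG9a minus Control, -0.0040 in siGLP minus Control and -0.0071 in siGLP minus siG9a. Of the 8 genes, 0 reached an unadjusted p under 0.05 in siG9a, 1 in siGLP and 1 between the knockdowns (Col4a1 in both).

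Among the 25 other collagens, Col8a1 had the smallest p of all collagen genes in siG9a. It encodes a short chain that forms networks in vessel walls and in the cornea. Its log2 signal was 8.53, 8.54 and 8.68 in siG9a, 8.21 and 8.32 in siGLP, and 8.07 and 8.28 in Control. The siG9a arrays lay above the other 4, and siGLP overlapped Control. The difference was 0.41 in siG9a minus Control (SE 0.090; 1.33-fold; limma adjusted p = 0.187) and -0.32 in siGLP minus siG9a (SE 0.090; adjusted p = 0.226). Its relative Col8a2 overlapped throughout, at 4.47 or below. Col10a1, the short chain of growth cartilage, lay between 4.36 and 4.59.

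Col7a1, which encodes the chain of the anchoring fibrils that tie epithelial basement membrane to the tissue below, was higher in both knockdowns. Its log2 signal was 6.10, 6.04 and 6.04 in siG9a, 6.39 and 6.14 in siGLP, and 5.88 and 5.81 in Control. No array of one group overlapped another group, with siGLP highest and Control lowest. The difference from Control was 0.21 in siG9a (SE 0.087; limma adjusted p = 0.465) and 0.42 in siGLP (SE 0.096; 1.34-fold; adjusted p = 0.269), and siGLP minus siG9a was 0.21 (SE 0.087; adjusted p = 0.400), or 0.08 without siGLP 1 and 0.34 without siGLP 2. Col3a1 and Col7a1 were the only collagen genes with an unadjusted p under 0.05 against Control in both knockdowns, in opposite directions, and their RefSeq promoter windows (GRCm38.p6) are shown for that reason. Col3a1 is at chr1:45311288-45311587 and Col7a1 at chr9:108953336-108953635, both on the plus strand. Capitals mark matches on either strand to 3 motifs. The first is the CCAAT box, with the letters CCAAT. The second is the TATA box, searched as TATAAA. The third is the GC box, searched as GGGCGG. The marked matches do not overlap each other.
Col3a1: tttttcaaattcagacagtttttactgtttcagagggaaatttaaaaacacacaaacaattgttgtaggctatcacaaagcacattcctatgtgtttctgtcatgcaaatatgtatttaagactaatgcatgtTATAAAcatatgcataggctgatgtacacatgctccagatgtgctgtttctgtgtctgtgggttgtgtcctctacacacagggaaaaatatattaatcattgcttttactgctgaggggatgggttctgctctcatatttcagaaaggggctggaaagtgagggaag
Col7a1: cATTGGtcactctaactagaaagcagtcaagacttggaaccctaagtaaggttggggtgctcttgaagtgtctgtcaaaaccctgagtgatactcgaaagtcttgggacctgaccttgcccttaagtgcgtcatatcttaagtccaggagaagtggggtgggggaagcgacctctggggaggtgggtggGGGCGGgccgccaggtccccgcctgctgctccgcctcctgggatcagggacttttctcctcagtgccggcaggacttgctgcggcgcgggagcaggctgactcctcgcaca
The Col3a1 window held a TATA box match, and the Col7a1 window held matches to the CCAAT box and the GC box. RefSeq windows were matched for 35 of the 44 collagen genes, 38 windows in all. The TATA box letters occurred in 13.2% of these and in 13.6% of all 32851 windows, the CCAAT box letters in 34.2% and 37.4%, and the GC box letters in 60.5% and 35.7%. Matches were taken anywhere in a window, whatever their distance from the annotated start. A match is a description of the letters and not a site of binding or a working promoter element.

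Type VI chains form the filaments that join basement membrane and fibres in muscle, and Col6a3 gave the largest difference of any collagen gene in siG9a. Its log2 signal was 9.18, 8.66 and 8.54 in siG9a, 9.32 and 8.87 in siGLP, and 9.46 and 9.16 in Control. The array siG9a 1 lay just above Control 2, while siG9a 2 and siG9a 3 lay below every other array. The difference in siG9a minus Control was -0.51 (SE 0.22; limma adjusted p = 0.483), and -0.71 without siG9a 1 (adjusted p = 0.320). Col12a1, a fibril-associated chain that decorates type I fibres, split siG9a in the same way, with log2 signals of 8.76, 8.09 and 7.96 in siG9a, 8.65 and 8.36 in siGLP, and 8.54 and 8.51 in Control. The siG9a 1 array was the highest of all 7 and the other siG9a arrays were the lowest. Without siG9a 1 the Col12a1 difference in siG9a minus Control was -0.49 (limma adjusted p = 0.303), against -0.25 with it. The siG9a arrays thus differed among themselves for both genes. In Control and siGLP too, array 1 read higher than array 2 for both genes, though for Col12a1 in Control only at 8.54 against 8.51. The source of this split by array was not tested.

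Col6a1 and Col6a2 encode the chains that join Col6a3 in the main type VI molecule. Col6a1 had log2 signals of 8.32, 8.17 and 8.14 in siG9a, 8.31 and 8.05 in siGLP, and 8.16 and 8.19 in Control. Col6a2, its neighbour on chromosome 10, had 6.10, 6.35 and 6.21 in siG9a, 6.003 and 6.280 in siGLP, and 5.92 and 6.28 in Control. On these probe sets both genes overlapped in all comparisons. A second probe set of Col6a1 read 8.041, 8.038 and 7.729 in siG9a, 7.829 and 7.864 in siGLP, and 8.145 and 7.916 in Control. There both siGLP arrays lay below both control arrays, while siG9a overlapped the other groups. Col6a4, Col6a5 and Col6a6, chains related to Col6a3 that lie next to each other on chromosome 9, lay between 3.29 and 4.53 on the 7 arrays. Col6a4 lay lowest in siGLP, with log2 differences of -0.14 in siGLP minus Control (limma adjusted p = 0.732) and -0.15 in siGLP minus siG9a (adjusted p = 0.504). Its signals lay below the median of all probe sets on every array, and without detection calls they may be near background.

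The 9 fibril-associated chains (types IX, XII, XIV, XVI, XIX, XX and XXII), which sit on the surface of fibres, gave no gene with an unadjusted p under 0.05 in any comparison. Besides Col12a1, their signals lay between 3.50 and 5.95 on the 7 arrays. In siG9a minus Control 8 of the 9 were lower (48.0% of all genes were), with a median log2 difference of -0.028, and in siGLP minus Control 3 of 9 were lower (49.2% of all genes were), with a median of 0.0074. In 6 of the 9 (66.7%, against 21.4% of all genes) the deposited value was identical on at least 3 arrays, so a sign can rest on few arrays. The 4 transmembrane chains, Col13a1, Col17a1, Col23a1 and Col25a1, likewise had no unadjusted p under 0.05, with signals between 4.16 and 5.34. Their lowest log2 difference in siG9a minus Control was -0.21, for Col25a1, with overlapping arrays. Col26a1, of neither group, lay between 5.35 and 5.57. Over all 25 other collagens the median was -0.013 in siG9a minus Control, 0.0074 in siGLP minus Control and 0.041 in siGLP minus siG9a.

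Set side by side, an unadjusted p under 0.05 in siG9a minus Control was reached by 3 of 11 fibrillar, 0 of 8 basement membrane and 2 of 25 other genes, against 10.5% of all genes. In siGLP minus Control the counts were 1 of 11, 1 of 8 and 1 of 25, against 8.63% of all genes. In siGLP minus siG9a they were 3 of 11, 1 of 8 and 2 of 25, against 12.4% of all genes. The 3 fibrillar genes of the last comparison, Col1a1, Col5a1 and Col5a3, were all lower in siGLP. Whether the classes differ was not tested, since members of a class share arrays and are not replicates. By array, the median over the fibrillar genes relative to the control mean was 0.093, 0.092 and 0.013 in siG9a, 0.072 and -0.040 in siGLP, and -0.0039 and 0.0039 in Control. Over all 44 genes the same value was at most 0.0046 in size on every array.

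Genes that modify and fold collagen chains were next examined, from a list of 18 measured enzymes and chaperones. None passed over all genes. In siG9a minus Control 1 was higher and 1 lower at an unadjusted p under 0.05 (5.95% and 4.57% of all genes), with a median log2 difference of -0.023. In siGLP minus Control 0 were higher and 2 lower (4.51% and 4.13% of all genes), with a median of -0.071. Plod2, the lysyl hydroxylase that prepares chain ends for cross-linking, had log2 signals of 9.89, 9.45 and 9.53 in siG9a, 9.39 and 9.29 in siGLP, and 9.02 and 9.11 in Control. The groups did not overlap, with siG9a highest. Its difference was 0.56 in siG9a minus Control (SE 0.13; limma adjusted p = 0.212) and 0.27 in siGLP minus Control (SE 0.14; adjusted p = 0.689). In siGLP minus siG9a it was -0.29 (SE 0.13; limma adjusted p = 0.444), or -0.16 without siG9a 1. P3h2, a prolyl 3-hydroxylase that acts on type IV chains, had 5.40, 5.14 and 5.27 in siG9a, 5.20 and 5.18 in siGLP, and 5.88 and 5.40 in Control. The control arrays were far apart, and the siGLP arrays lay below both (log2 difference -0.45, SE 0.16; limma adjusted p = 0.496), while siG9a minus Control was -0.37 (SE 0.15; adjusted p = 0.445). Without Control 1 the P3h2 difference was -0.21 in siGLP and -0.13 in siG9a, and without Control 2 it was -0.69 in siGLP and -0.61 in siG9a. Serpinh1, the collagen chaperone HSP47, had log2 signals of 10.05, 10.09 and 9.95 in siG9a, 9.92 and 9.99 in siGLP, and 10.20 and 10.17 in Control. All knockdown arrays lay below both control arrays, with log2 differences of -0.15 in siG9a (SE 0.068; limma adjusted p = 0.497) and -0.23 in siGLP (SE 0.075; adjusted p = 0.441). P4ha1, a catalytic subunit of prolyl 4-hydroxylase, overlapped between groups at 8.62 to 8.83.

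**Figure D3:**
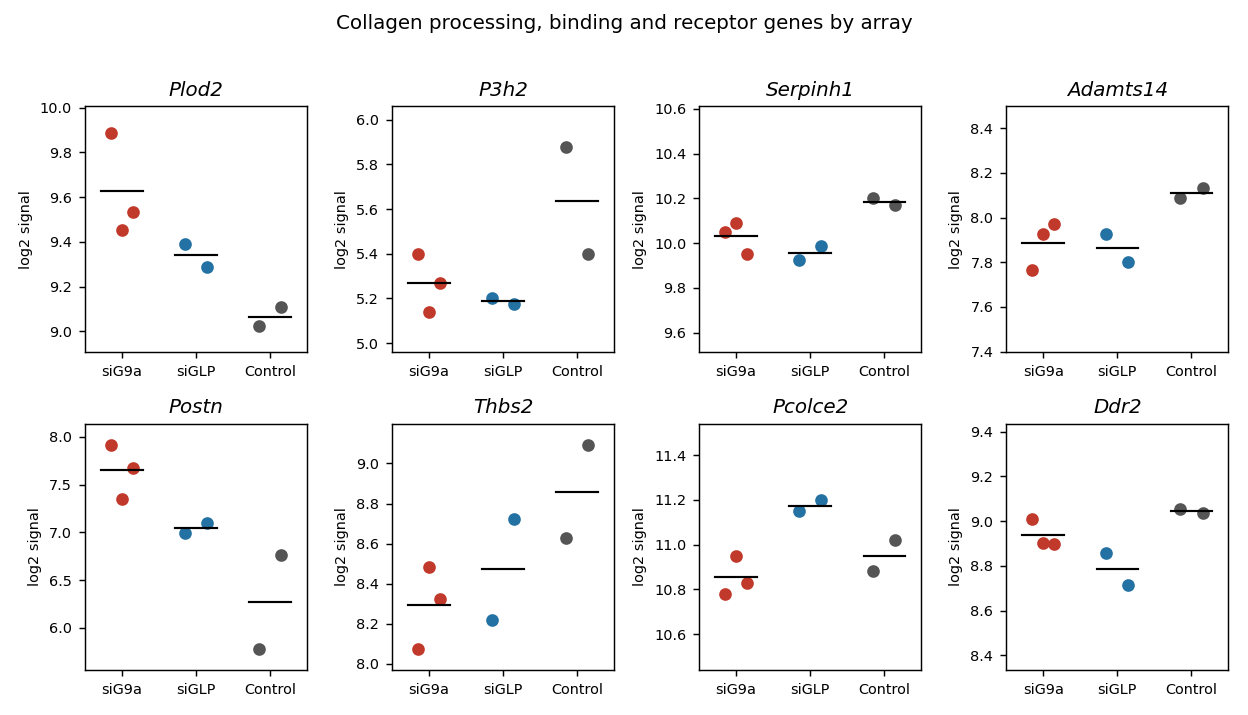
Log2 signal (vertical axes, each panel on its own range) of 8 genes of collagen processing, fibril binding and reception on each array (points), with group means as lines, for siG9a (3 arrays), siGLP (2) and Control (2). Plod2 and Postn are higher and Serpinh1, Adamts14 and Ddr2 lower on all knockdown arrays than on both control arrays.

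Of 20 measured genes of export, trimming and cross-linking, 2 were higher and 2 lower at an unadjusted p under 0.05 in siG9a (10.5% of all genes in either direction), and 1 was higher and 1 lower in siGLP (8.63%), with 0 past the threshold over all genes. Sec23a, a coat protein of the vesicles that carry procollagen, and Loxl1, a lysyl oxidase, stood at 0.29 and 0.27 in siG9a minus Control (limma adjusted p = 0.350 and 0.389). The Loxl1 difference was 0.12 without Control 1 and 0.42 without Control 2. Adamts14, a protease that removes the amino-terminal propeptide, had log2 signals of 7.76, 7.93 and 7.97 in siG9a, 7.93 and 7.80 in siGLP, and 8.09 and 8.13 in Control, below both control arrays throughout (log2 differences -0.22 and -0.25; limma adjusted p = 0.424 and 0.519). Pcolce2, which enhances removal of the carboxy-terminal propeptide, had 10.78, 10.95 and 10.83 in siG9a, 11.15 and 11.20 in siGLP, and 10.88 and 11.02 in Control. It was highest in siGLP, with 0.32 over siG9a (SE 0.078; limma adjusted p = 0.171). The cross-linking enzyme gene Lox lay between 10.11 and 10.44 and the collagen-binding protein gene Sparc between 10.87 and 10.99 on the 7 arrays.

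Among 13 measured fibril-binding matrix proteins, 1 was higher and 1 lower at an unadjusted p under 0.05 in siG9a (10.5% of all genes in either direction), and 2 were higher and 1 lower in siGLP (8.63%), with 0 past the threshold. Postn encodes periostin, which binds type I collagen and promotes its cross-linking. Its log2 signal was 7.91, 7.35 and 7.68 in siG9a, 6.99 and 7.09 in siGLP, and 5.78 and 6.76 in Control. All knockdown arrays lay above both control arrays, which were themselves far apart. The difference was 1.37 in siG9a minus Control (SE 0.28; limma adjusted p = 0.170), between 0.88 and 1.86 without any 1 array, and 0.77 in siGLP minus Control (SE 0.31; adjusted p = 0.559), where it was 0.28 without Control 1 and 1.25 without Control 2. In siGLP minus siG9a it was -0.61 (SE 0.28; limma adjusted p = 0.453). Thbs2, which encodes the matrix glycoprotein thrombospondin 2, had 8.08, 8.48 and 8.32 in siG9a, 8.22 and 8.72 in siGLP, and 8.63 and 9.09 in Control, a difference of -0.56 in siG9a (SE 0.20; limma adjusted p = 0.401), with -0.33 without Control 2. Ogn, a small proteoglycan of the matrix, had 9.38, 9.54 and 9.33 in siG9a, 8.97 and 9.49 in siGLP, and 9.56 and 9.74 in Control, a difference of -0.42 in siGLP (SE 0.17; adjusted p = 0.563), with -0.16 without siGLP 1 and -0.68 without siGLP 2.

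Of 9 measured collagen receptors, 0 were higher and 0 lower at an unadjusted p under 0.05 in siG9a (10.5% of all genes), and 1 was lower in siGLP (4.13%). This was Ddr2, a receptor kinase for fibrillar collagen, with 9.01, 8.90 and 8.90 in siG9a, 8.86 and 8.72 in siGLP, and 9.05 and 9.04 in Control (log2 difference -0.26 in siGLP, SE 0.080; limma adjusted p = 0.420). Of 13 genes of collagen turnover, 0 reached an unadjusted p under 0.05 in siG9a (10.5% of all genes) and 1 was lower in siGLP (4.13%), Mmp1b, whose signal of 1.92 to 2.28 lay below the lower quartile. Timp3, an inhibitor of matrix proteases, had 9.35, 8.81 and 9.00 in siG9a, 9.79 and 9.40 in siGLP, and 9.41 and 9.27 in Control, and was 0.54 higher in siGLP than in siG9a (SE 0.18; limma adjusted p = 0.288), or 0.35 without siGLP 1.

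Marker lists of cell types were set beside these values. The mean log2 signal over the 10 myoblast markers was 7.78 to 7.89 in siG9a, 7.80 to 7.88 in siGLP and 8.02 to 8.12 in Control, and that over the 8 fibroblast markers was 5.07 to 5.14, 5.05 to 5.11 and 4.96 to 5.04 in the same groups. Over the 4 leukocyte markers it was 4.59 to 4.66 in siG9a, 4.53 to 4.63 in siGLP and 4.37 to 4.44 in Control, with Cd68 alone above the median of all probe sets. At an unadjusted p under 0.05, 5 of the 10 myoblast markers were lower in siG9a (4.57% of all genes) and 4 in siGLP (4.13%), with 0 higher in either. Cdh15, Vcam1 and Mymk were among both. Myod1 (log2 difference -0.68 in siG9a, -0.0025 in siGLP) and Itga7 (-0.19 and 0.075) were lower at that mark only in siG9a. Des (-0.095 in siG9a, -0.20 in siGLP) was lower at that mark only in siGLP. At the same mark, 1 of 8 fibroblast markers was higher in siG9a (5.95% of all genes) and 2 in siGLP (4.51%), with 0 lower. These were different genes. The gene in siG9a was Dpt (log2 difference 0.50), which stood at -0.15 in siGLP. Those in siGLP were Cd34 (0.58) and Lum (0.22), which stood at 0.31 and -0.011 in siG9a. Lum, at 2.63 to 2.94 on the 7 arrays, was dimmer than the lower quartile, so its values may be background. Of the leukocyte markers 1 was higher in each knockdown, Cd68, with log2 signals of 7.82, 7.67 and 7.79 in siG9a, 7.83 and 7.54 in siGLP, and 7.06 and 7.22 in Control (limma adjusted p = 0.133 in siG9a and 0.262 in siGLP). Their part in the collagen values was not tested. In bulk RNA, fewer cells that express a gene and less RNA per cell cannot be told apart.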

How the data were processed

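The authors deposited log2 signals from RMA (background correction, quantile normalization and probe summarisation), and the submitters' processing notes also name Partek, without versions. The log2 scale was read from the range of the values, and no source used here gives the authors' test, genome build or scan batches. Biotin-labelled cDNA came from 100 ng of total RNA, per the labels' protocols.

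Of 33649 probe sets, 23521 had 1 gene symbol, 1814 several and 8314 none. Current symbols came from RefSeq (GRCm38.p6) by Entrez number for 23328, and the other 193 kept the platform's symbol. The probe set with the highest mean was kept for each gene. For the 3 collagen genes with 2 probe sets (Col1a2, Col5a1 and Col6a1) the mean over both was fitted as an alternative. A probe set shared by Col6a1 and other genes was left out.

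Differences were fitted with limma 3.58.1 in R 4.3.3 (lmFit and eBayes) over all 22180 genes and 7 arrays, with 1 mean per group (4 residual degrees of freedom, 6.89 with moderation), two-sided, and Benjamini-Hochberg adjusted over all genes. A gene passed at an adjusted p under 0.05, and unadjusted p under 0.05 and non-overlap of arrays serve as descriptions. The fit was run on simulated data with independent errors, to check that the sizes of known differences were recovered. That check did not cover how often such differences pass the threshold. A gene that did not pass is therefore not shown to be unchanged. Effects shared by same-numbered arrays were not simulated. Named genes were the targeted genes, the 10 collagen genes with the smallest p per comparison, the 10 with the highest mean, all chains of types I, III, IV, V and VI, and up to 4 members of each pathway list with the smallest p per knockdown, plus Serpinh1, P4ha1, Plod2, Lox and Sparc. Fitted differences are printed for a selection of these genes, mostly where the unadjusted p was under 0.1 or arrays did not overlap. The members and lists were chosen with earlier results of these data known. Levels of different probe sets were not compared with each other, only with the distribution of all probe sets.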

Additional observations from a re-analysis of the deposited data

How the results depend on the processing

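No collagen gene passed in any comparison under any alternative run. These were other normalizations, filters on dim genes, 2-group fits, a trended robust fit and the mean over the probe sets of a gene. The replicate block and fits with any 1 array left out were also run. Fits without a Control or siGLP array kept only 1 array in that group. The smallest adjusted p over all these limma runs was 0.0678, for Col4a1 in siGLP minus siG9a with genes below the median left out. No named gene's called difference changed sign. Ehmt2 in siG9a minus Control and in siGLP minus siG9a lost its call without any 1 siG9a array, with 2 groups and with the block. In 2 cases over the alternative runs, a named gene that is no collagen gained a call that it lacked in the main fit. Counts of all genes that passed did move. In siG9a minus Control 6 passed, against 16 after quantile normalization, 30 without genes below the 30th percentile, 148 without those below the median, 100 with a trended robust fit and 0 with only the 2 groups. In siGLP minus Control 1 passed, against 21 without genes below the median, 23 with the trended robust fit and 0 with 2 groups. In siGLP minus siG9a 52 passed, against 171, 350, 304 and 0 for the 30th percentile, the median, the trended robust fit and the 2 groups. Without any 1 siG9a array the counts were 0 to 0, 0 to 1 and 0 to 0. The cause of these shifts was not tested.

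Median log2 differences were small and moved with the filter. With genes below the median left out, they were 0.034 over all collagens, 0.077 over basement membrane and -0.028 over other collagens in siG9a minus Control. In siGLP minus Control they were -0.017, -0.142 and 0.023, with -0.054 over fibrillar genes, and in siGLP minus siG9a -0.161 over basement membrane and 0.067 over other collagens. Quantile normalization gave -0.008 over all and -0.005 over other collagens in siGLP minus Control, and -0.014 and 0.022 in siGLP minus siG9a. Cyclic loess gave 0.0 over all collagens in siGLP minus Control, and -0.012 over all and 0.026 over other collagens in siGLP minus siG9a. The 30th percentile filter gave -0.067 over fibrillar genes in siGLP minus siG9a. Without any 1 array, the medians ran as follows, with siG9a minus Control before siGLP minus Control, and siGLP minus siG9a last. Over all collagens they were 0.0 to 0.014, 0.0 to 0.006 and -0.018 to -0.001. Over fibrillar genes they were 0.034 to 0.155, -0.04 to 0.071 and -0.172 to -0.062. Over basement membrane genes they were 0.004 to 0.035, -0.059 to 0.008 and -0.063 to 0.003. Over other collagens they were -0.03 to 0.001, 0.0 to 0.019 and -0.001 to 0.061.

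Deviations of same-numbered arrays from their group means had correlations from 0.005 to 0.172, and those of different-numbered arrays from -0.172 to 0.149. Each comparison had fewer than 3 pairs, and in a group of 2 arrays the deviations mirror each other. These values therefore cannot decide whether same-numbered arrays share more than a number. Only siG9a has an array numbered 3, so the replicate block fitted siG9a 3 exactly and that array added nothing to the differences. The block is therefore no separate check on all 7 arrays. With it 0 genes passed in each comparison. The medians were 0.093 over fibrillar and -0.03 over other collagens in siG9a minus Control, and -0.172 and 0.021 in siGLP minus siG9a. These medians equal those without siG9a 3. Collagen genes at an unadjusted p under 0.05 then numbered 7 in siG9a minus Control (9.78% of all genes), 6 in siGLP minus Control (9.33%) and 7 in siGLP minus siG9a (11.8%), against 5, 3 and 6 without the block.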
